A study of Rattus norvegicus with 2 samples.

Results

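Cells of the oligodendrocyte lineage were taken as cells with a unique molecular identifier (UMI, 1 per captured transcript molecule) of at least 3 of the genes Olig1, Olig2, Sox10, Bcas1 and Mbp, whose UMIs summed to at least 500 CPM, that is, per 1000000 UMIs of the cell. Cells had first to show 500 genes or more and no more than 20% of UMIs from mitochondrial genes, and of the 3761 that did, 62 met the rule. Of them, 56 were among 1968 cells of the WT library and 6 among 1793 cells of the Nuc1 library. The libraries held optic nerve cells of WT rats and of Nuc1 rats, a mutant of the Sprague Dawley strain with a spontaneous insertion in Cryba1, the gene of βA3/A1-crystallin, and there was 1 library per genotype. The labels give postnatal day 7 and name no treatment for either. The methods of the study speak of mixed primary cultures of glia and the series title of a mixed culture, whereas the design text describes a digested nerve and names no culture step. The labels name neither the number nor the sex of the rats. With 1 library per genotype no test between genotypes was possible, and every interval below is an exact 95% interval that covers counting error only.

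Oligodendrocytes wrap axons of the central nervous system, the optic nerve included, in myelin. They arise from dividing precursors that carry the PDGF receptor Pdgfra and the NG2 proteoglycan Cspg4, pass through a committed state with genes such as Bmp4, Enpp6 and Itpr2, and then switch on the genes of myelin proteins and myelin lipids. Olig1, Olig2 and Sox10 are transcription factors of the whole lineage, whereas Bcas1 and Mbp rise as the cells begin to make myelin.

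The 5 genes of the rule chose the cells, so their levels are a description. In WT lineage cells Olig2 had a UMI in 56 of 56 cells, Olig1 and Bcas1 in 55, Sox10 in 52 and Mbp in 12, and in Nuc1 lineage cells Olig1 and Bcas1 had one in 6 of 6 cells, Olig2 and Sox10 in 5 and Mbp in 2. The summed level of the 5 genes ran from 645 to 30095 CPM per WT cell, with a median of 6196, and from 668 to 7776 CPM per Nuc1 cell, with a median of 5454. The next lowest members lay at 779 CPM in WT and 3414 CPM in Nuc1. Just outside the rule, 13 WT cells had at least 3 of the genes but reached at most 444 CPM, and 1 such Nuc1 cell had 124 CPM. Another 3 WT cells passed 500 CPM with fewer than 3 genes, the highest at 8511 CPM in a cell of 705 UMIs, as did 7 Nuc1 cells, which reached 661 CPM.

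The rule did not use Tubb4a, Cnp and Pllp, but these markers were chosen with earlier results of these data known. Their levels therefore describe the cells and do not test the label. Gpr17 and Neu4, which were nearly absent, and Cldn11, which was not higher, are given below. Tubb4a, a tubulin of mature oligodendrocytes, stood at 805 CPM in WT lineage cells and 1.88 CPM in the other WT cells, and at 213 against 2.66 CPM in Nuc1. The myelin enzyme gene Cnp had a UMI in all 56 and all 6 lineage cells, at 2136 against 61.7 CPM in WT and 2007 against 82.7 CPM in Nuc1. Plasmolipin, Pllp, stood at 728 against 0.454 CPM in WT and 446 against 1.88 CPM in Nuc1. Markers of endothelial cells, pericytes and red blood cells were at 0 UMIs in the lineage cells of both libraries, and those of macrophages and microglia had 2 UMIs in WT and 0 in Nuc1.

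Promoters of genes that lead these cells are printed because the same short motif, the letters ACAAAG read on either strand, lay in 3 of them. ACAAAG is a core recognised by HMG-box factors, the class to which Sox10 belongs. Each line gives the 250 bases before the transcription start of RefSeq, build GRCr8, on the strand of the gene, with CTTTGT, which is ACAAAG on the opposite strand, in capitals. Mag encodes a myelin adhesion protein, Enpp6 a choline phosphodiesterase of newly formed oligodendrocytes, and Rlbp1 a retinaldehyde-binding protein. They lie at chr1:95291045-95291294, chr16:52026729-52026978 and chr1:142731622-142731871, all on the minus strand, and the motif begins 152, 196 and 21 bases before the start.
Mag: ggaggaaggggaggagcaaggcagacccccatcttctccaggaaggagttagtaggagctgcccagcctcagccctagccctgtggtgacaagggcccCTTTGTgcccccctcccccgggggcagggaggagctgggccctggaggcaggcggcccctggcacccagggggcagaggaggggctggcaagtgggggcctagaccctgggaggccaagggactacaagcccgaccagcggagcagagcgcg
Enpp6: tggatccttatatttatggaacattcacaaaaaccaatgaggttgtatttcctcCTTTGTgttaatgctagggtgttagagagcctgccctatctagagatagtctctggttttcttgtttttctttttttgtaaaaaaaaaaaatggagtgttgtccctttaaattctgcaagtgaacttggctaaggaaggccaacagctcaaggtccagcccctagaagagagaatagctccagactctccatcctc
Rlbp1: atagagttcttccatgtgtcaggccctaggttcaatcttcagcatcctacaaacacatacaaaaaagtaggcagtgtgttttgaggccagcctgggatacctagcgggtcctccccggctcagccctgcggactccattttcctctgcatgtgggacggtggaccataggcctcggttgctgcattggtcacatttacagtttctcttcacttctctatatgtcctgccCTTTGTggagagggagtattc
Of the 15 genes that led the lineage cells, 10 had a promoter in the table, and 3 of these 10 (30%) held ACAAAG, beside 15.8% of all 24206 promoters and 11.5% of the promoters of 8108 genes compared here. Among genes at least 2-fold higher in lineage cells in both libraries, 14.2% of 779 promoters held it, and among those at least 2-fold lower 9.02% of 366 did. The E-box CAGCTG, which reads the same on both strands and is of the kind that basic helix-loop-helix factors such as Olig2 bind, lay in 0 of the 10, in 11.9% of all promoters, in 13.2% of those of the higher and 10.9% of those of the lower genes, and in 4 of 19 (21.1%) of the myelin list, which held ACAAAG in 5 of 19 (26.3%). A match describes letters and is no evidence of binding.

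Lineage cells made up 2.85% of the kept WT cells (2.16 to 3.68) and 0.335% of the kept Nuc1 cells (0.123 to 0.727). The WT share was 8.50 times the Nuc1 share (3.67 to 24.2), a gap beyond counting error, while the spread between animals or dissections of 1 genotype could not be measured. The lineage cells held 996611 UMIs in WT and 98642 in Nuc1, with medians of 12672 and 14790 per cell, against 14090 and 16621 in the other cells. Mitochondrial genes took a median of 12.5% of the UMIs of WT lineage cells and 9.21% of those of the other WT cells, and 10.1% and 9.32% in Nuc1. With at most 10% mitochondrial UMIs allowed, 13 WT and 3 Nuc1 lineage cells remained, and the shares were 1.04% and 0.268%. The libraries shared 2 cell barcodes, none of them in a lineage cell.

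**Figure D1:**
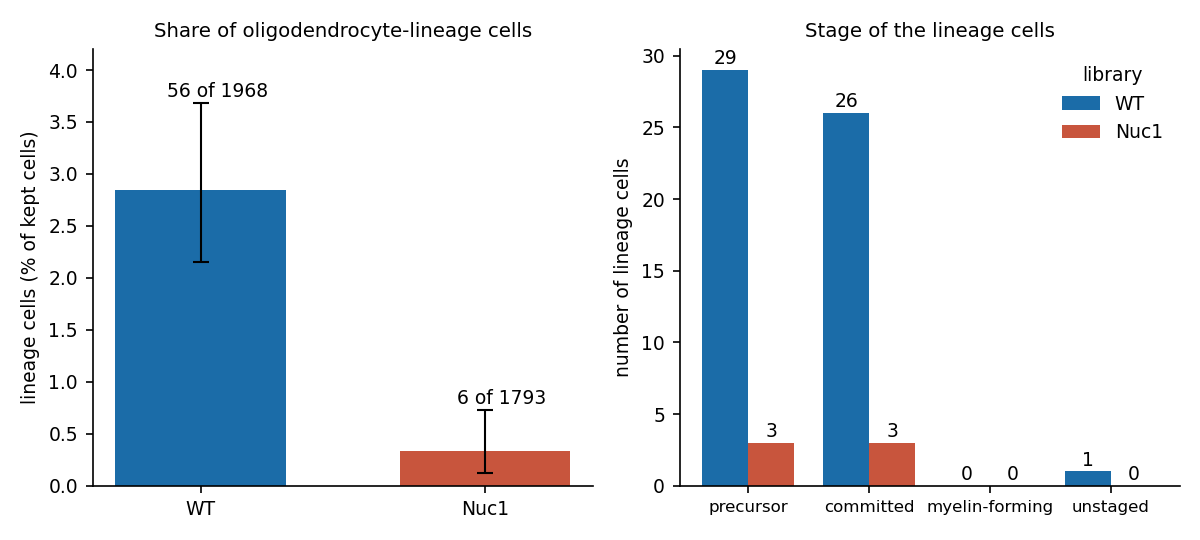
Share of kept cells that belong to the oligodendrocyte lineage in each library, in percent with exact 95% binomial intervals, and the number of lineage cells of each stage. The WT library, at 2.85%, lies above the Nuc1 library, at 0.335%, and both libraries hold precursor and committed cells but none that met the criterion for myelin-forming.

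**Figure D2:**
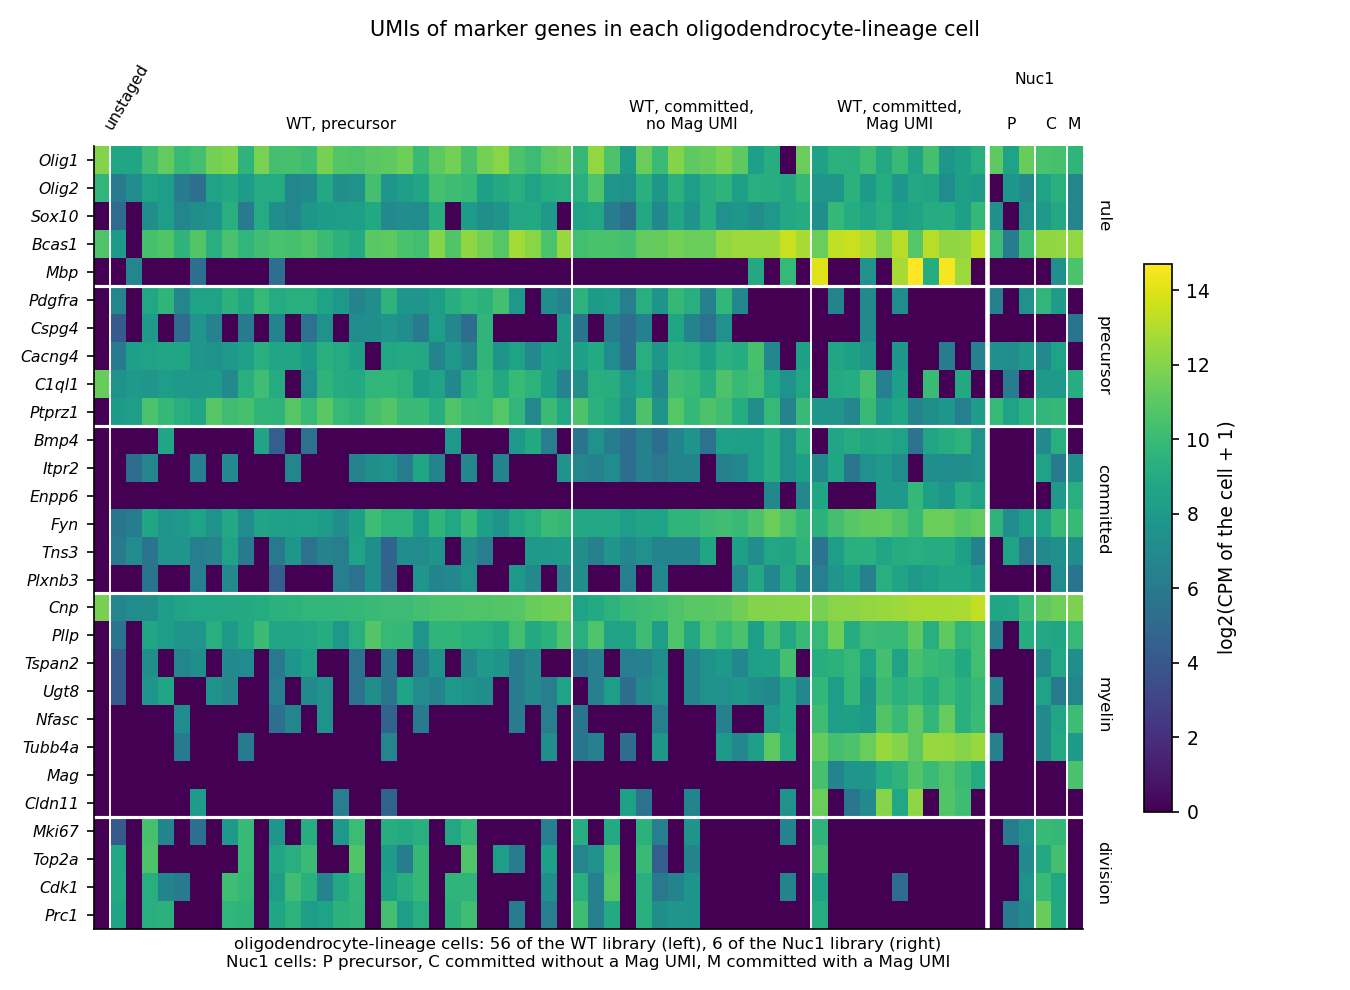
Level of lineage genes in each of the 62 lineage cells, as log2(CPM + 1), with cells in columns ordered by library and stage and genes in rows ordered by role. Olig1, Bcas1 and Cnp are bright in nearly all columns, whereas Mbp and Tubb4a are bright mainly in the 11 WT cells with a Mag UMI, where Pdgfra is mostly dark (0 UMIs).

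The cells were next compared with all other kept cells of their own library, gene by gene, over 11256 genes with at least 100 UMIs in all kept cells. UMIs were summed over cells and given as CPM, and a gene was called when its ratio was at least 2-fold the same way in both libraries. Because the cells were chosen by expression these ratios describe them and test nothing, and a gene low elsewhere reached 100 UMIs only through the lineage cells. Of all genes, 1077 (9.57%) were higher in both libraries and 523 (4.65%) lower, with a median log2 ratio of 0.09 in WT and 0 in Nuc1. Scaling by the trimmed mean of M values (TMM) moved log2 ratios by -0.30 in WT and -0.54 in Nuc1 and turned these counts to 669 higher and 886 lower.

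The 15 genes with the highest ratio in both libraries included the rule genes Sox10, Bcas1, Mbp and Olig2. Ugt8, the enzyme that makes galactosylceramide, the main glycolipid of myelin, had 253 UMIs in 45 of 56 WT lineage cells and 1 UMI in all other WT cells, a ratio of 8389 with a counting interval from 1492 to 332623. Gal3st1, which sulphates that lipid, had 155 UMIs in 47 WT cells and again 1 UMI elsewhere, a ratio of 5139 (909 to 204282). In Nuc1, Ugt8 had 8 UMIs in 4 of 6 lineage cells and 0 elsewhere, and Gal3st1 stood at 101 against 0.314 CPM. The pair that builds and sulphates the myelin galactolipid thus had between 0 and 11 UMIs in all other cells of either library.

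Mag stood at 218 CPM in WT lineage cells and 0.182 CPM in other WT cells, a 1199-fold ratio (542 to 3304), although it was found in 11 of the 56 cells. In Nuc1 all 28 of its UMIs lay in 1 lineage cell and none in other cells. Against a floor of 3 counts over those other cells the ratio was 3314, with an exact lower limit of 2521.5. Pllp, a proteolipid of myelin, was 1605-fold higher in WT (966 to 2882) and 237-fold in Nuc1. Omg, the oligodendrocyte myelin glycoprotein, was 836-fold higher in WT (349 to 2618) and stood at 71.0 against 0.286 CPM in Nuc1. These myelin genes differed in spread: among 56 WT lineage cells Pllp was found in 54, Omg in 43 and Mag in 11.

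Enpp6 stood at 74.3 against 0.151 CPM in WT, in 10 cells, and at 193 against 0.200 CPM in Nuc1, in 2 cells. Rlbp1 stood at 319 against 0.393 CPM in WT, in 42 cells, and at 132 against 0.485 CPM in Nuc1. Fam89a, at 480 against 0.575 CPM in WT and 608 against 0.200 CPM in Nuc1, and Shisal1, at 133 against 0.454 CPM in WT and 182 CPM in Nuc1 with 14 UMIs in its other cells, were spread over 47 WT cells each. Pnlip, known as the lipase of the pancreas, stood at 366 CPM in WT lineage cells with 3 UMIs elsewhere, a ratio of 4034 (1370 to 19652), and lay in 26 cells, while all 10 of its Nuc1 UMIs came from 1 cell. At the other end stood Ifitm1, Col8a1, Cemip, Pcolce and Ifitm2, genes of matrix and interferon-response proteins: Ifitm1 had 5.02 against 265 CPM in WT and 10.1 against 1147 CPM in Nuc1.

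**Figure D3:**
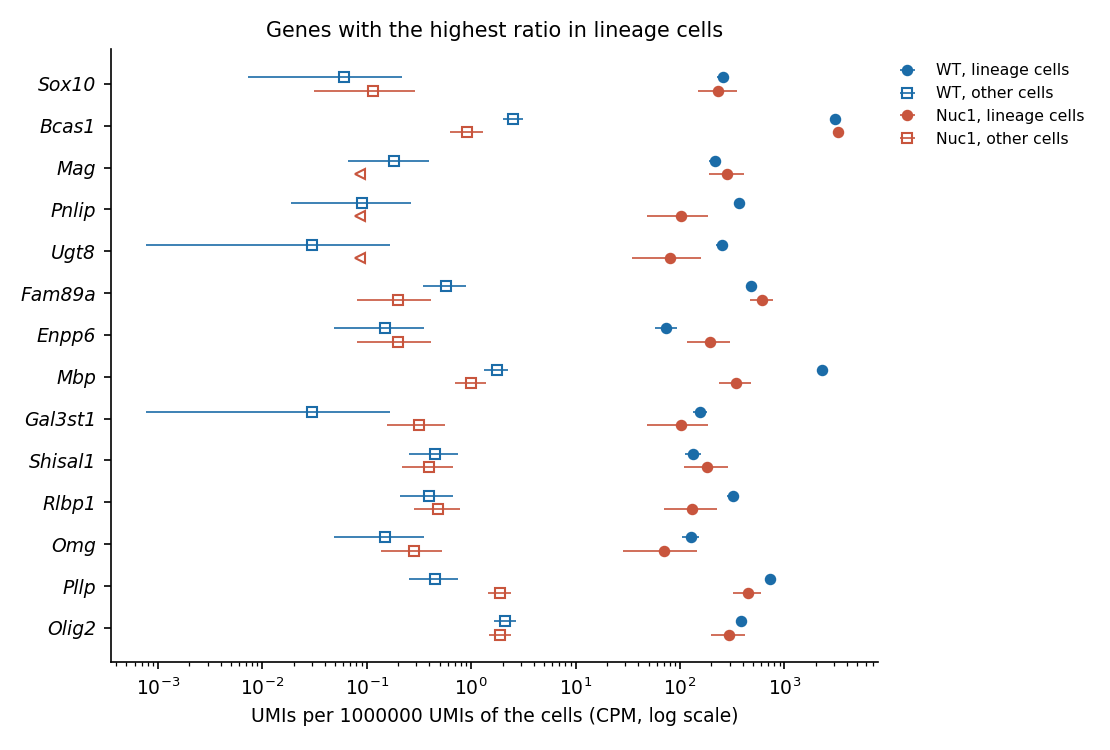
CPM on a log axis of genes with the highest ratio, in lineage cells (filled) and in all other kept cells (open squares), with exact Poisson intervals. Lineage levels lie between 71.0 and 3254 CPM, while all other levels lie at or below 2.51 CPM. A left-pointing triangle marks the floor of 3 counts where a sum was 0 UMIs, as for Mag, Pnlip and Ugt8 in other Nuc1 cells.

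Beyond the rule genes, and beside the 9.57% and 4.65% of all genes, 7 of 12 lineage transcription factors were higher in both libraries, 1 was lower and 4 were neither, with median log2 ratios of 2.67 in WT and 2.25 in Nuc1. Sox8, a close relative of Sox10, stood at 217 against 0.726 CPM in WT and 162 against 2.74 CPM in Nuc1. Myrf, the factor that turns on myelin genes, stood at 73.2 against 4.39 CPM and 101 against 2.40 CPM. Tcf7l2, which acts at the onset of differentiation, was at 146 against 98.5 CPM in WT and 284 against 83.1 CPM in Nuc1, and Prrx1, a mesenchymal factor, was the one that was lower, at 16.1 against 94.3 CPM and 20.3 against 102 CPM.

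Of the precursor genes, 10 of 13 were higher in both libraries, with medians of 4.28 and 2.30. Ptprz1, a receptor phosphatase of precursors, stood at 749 against 38.6 CPM in WT and 608 against 124 CPM in Nuc1. C1ql1, a secreted synapse organiser, stood at 427 against 21.9 CPM and 213 against 75.1 CPM. Pdgfra was at 293 against 72.8 CPM in WT, in 41 cells, but at 193 against 152 CPM in Nuc1, so that it did not reach 2-fold there. Other cells of both libraries carried Pdgfra too, and Cspg4 stood at 71.2 against 12.9 CPM in WT with 1 UMI in Nuc1 lineage cells.

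Of the committed genes, 7 of 10 were higher in both libraries, with medians of 3.02 and 2.89. Fyn, the kinase that relays axon contact, stood at 753 against 39.0 CPM in WT and 679 against 44.0 CPM in Nuc1. Plxnb3, a semaphorin receptor, stood at 103 against 0.545 CPM and 50.7 against 0.914 CPM. The committed markers Gpr17 and Neu4 were nearly absent, with 3 UMIs and 0 UMIs in WT lineage cells. In Nuc1 both had 0 UMIs, where the floor of 3 counts is 30.4 CPM. These 2 genes had too few UMIs to enter the comparison.

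Of the myelin genes, 8 of 13 were higher in both libraries, with medians of 5.11 and 4.60. Nfasc, a cell adhesion protein of the node and the axon-glia junction, stood at 275 against 3.45 CPM in WT and 355 against 5.25 CPM in Nuc1, and Tspan2, a tetraspanin, at 254 against 17.8 CPM and 172 against 12.0 CPM. Cldn11, the claudin of myelin tight junctions, was at like levels, 400 against 388 CPM, in WT (ratio 1.03, 0.931 to 1.14), and had 0 UMIs in Nuc1 lineage cells and 333 CPM in other Nuc1 cells. Genes of mature, compact myelin were at or near 0: Mobp and Ermn had no UMI in any lineage cell, Opalin 5 UMIs in 1 WT cell and Mog 7 UMIs in 2 WT cells.

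Of 10 galactolipid and sphingolipid genes compared, Ugt8 and Gal3st1 were the 2 that were higher in both libraries. Fa2h, the fatty acid hydroxylase of myelin lipids, stood at 72.2 against 0.0605 CPM in WT and 50.7 against 0.143 CPM in Nuc1, but had too few UMIs to be compared. Of 21 cholesterol synthesis genes, 6 were higher in both libraries, with medians of 0.99 and 0.54. In WT, Idi1 stood at 461 against 131 CPM, Sqle was 2.79-fold higher and Fdps 2.52-fold, and in Nuc1 Idi1 was 4.03-fold higher. Under TMM scaling 1 of the 21 was at least 2-fold higher in both libraries.

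Of the ion channels and transmitter receptors, 6 of 10 were higher in both libraries, among them the AMPA receptor subunits Gria2 (16.6-fold in WT, 9.10-fold in Nuc1), Gria3 (22.8-fold and 11.3-fold) and Gria4 (46.2 against 3.54 CPM and 40.6 against 5.62 CPM). The kainate receptor subunit Grik4 was 66.3-fold higher in WT, with 3 UMIs in Nuc1 lineage cells, and the potassium channel Kcna1 42.0-fold and 13.3-fold higher. Of the genes of axon contact and matrix, 9 of 14 were higher, such as Cntn1, a neuronal and glial adhesion protein (156-fold in WT, 3 UMIs in Nuc1 lineage cells), and Tnr, a matrix protein around nodes (22.3-fold and 6.30-fold). Of the receptors, 3 of 18 were higher: Erbb3, a neuregulin receptor (255-fold in WT, 3 UMIs in Nuc1 lineage cells), Notch1 (7.24-fold and 3.67-fold) and Lingo1, an inhibitor of myelination (3.63-fold and 7.32-fold).

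The JAK-STAT genes, which the study followed in astrocytes, were compared in the same way. Of 18, 0 were higher in both libraries and 1 was lower, beside 9.57% and 4.65% of all genes, with medians of -0.03 and 0. Under TMM scaling 4 were lower, without the cells that held RNA of other types or with a rule threshold of 1000 CPM 3, without cells of very high depth 2, and with at most 10% mitochondrial UMIs 0. Over all genes, the 523 lower genes became 886, 574, 538, 560 and 291 under these settings, in that order. Lepr, the leptin receptor, was the lower one, with 3 UMIs (3.01 CPM) against 67.0 CPM in WT, and with 0 UMIs against 108 CPM in Nuc1. Stat3 stood at 169 against 132 CPM in WT and 213 against 145 CPM in Nuc1. Ptpn1, the gene of PTP1B, stood at 59.2 against 55.3 CPM and 101 against 86.1 CPM, Jak2 at 44.1 against 39.7 CPM and 20.3 against 40.6 CPM, Pik3ca at 55.2 against 57.9 CPM and 101 against 59.8 CPM, and Il6st at 24.1 against 37.4 CPM and 40.6 against 55.8 CPM. Cryba1 itself had no UMI in any kept cell of either library.

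Genes of cell division were higher in lineage cells: 16 of 21 in both libraries, with medians of 1.42 and 2.55. Under TMM scaling 13 were. Top2a, a topoisomerase of dividing cells, stood at 366 against 83.0 CPM in WT and 456 against 54.0 CPM in Nuc1. Cells with a UMI of both Mki67 and Top2a made up 17 of 56 WT lineage cells (30.4%, 18.8 to 44.1) and 8.94% of the other WT cells (7.70 to 10.3), and 3 of 6 Nuc1 lineage cells against 6.21% of the others. With every cell thinned to 5000 UMIs the shares were 25.5% (14 of 55) against 5.57% in WT and 2 of 6 against 3.55% in Nuc1, so the gap in WT was present at equal depth. With at most 10% mitochondrial UMIs 7 of the 21 genes were higher in both libraries, and in Nuc1 Top2a had a log2 ratio of -0.56, from 3 cells. Under the same limit 2 of the transcription factors, 5 of the precursor, 2 of the committed and 3 of the myelin genes were at least 2-fold higher in both libraries.

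RNA of other cell types was present in some lineage cells. Fibroblast markers passed 300 CPM in 3 of the 56 WT cells, the motile cilia genes had 333 of their 334 UMIs in 1 WT cell of 59053 UMIs, and Aqp4 and Mlc1, which mark astrocytes, were both found in 4 WT cells that held 203 of their 205 UMIs. In all, 7 WT cells and 1 Nuc1 cell had such RNA. Leaving them out gave 9 precursor, 6 committed, 8 myelin and 17 division genes at least 2-fold higher in both libraries. With all lineage cells these counts were 10, 7, 8 and 16. Over all genes, leaving these cells out moved the count of higher genes from 1077 to 1213. Summed astrocyte markers stood at 1230 CPM in WT and 588 CPM in Nuc1 lineage cells, against 2911 and 6428 CPM in the other cells. Of 8 astrocyte markers 1 was higher and 1 lower in both libraries, and 5 of 6 fibroblast markers were lower. Of the Schwann cell markers, 0 of 3 were called. Among melanocyte markers Pmel was the exception, with 100 UMIs in 34 WT cells (48.8-fold) and 6 UMIs in Nuc1 (26.3-fold), while Tyr and Mlana were at 0. Of the neuron markers Tubb3 was higher and Stmn2 lower.

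Stage was then assigned from genes that the rule did not use: myelin-forming with at least 3 of Mag, Mog, Mobp, Mal, Opalin and Ermn, otherwise committed with at least 2 of Gpr17, Neu4, Bmp4, Enpp6 and Itpr2, otherwise precursor with at least 2 of Pdgfra, Cspg4, C1ql1, Matn4 and Cacng4. In WT 29 cells were precursors (51.8%, 38.0 to 65.3) and 26 were committed (46.4%, 33.0 to 60.3). In WT 0 were myelin-forming, with an exact upper limit of 6.375%, and 1 shallow cell of 1214 UMIs had no stage. In Nuc1 3 cells were precursors and 3 committed. The stages overlapped: 22 of the 26 committed WT cells also met the precursor criterion, and 18 WT cells had exactly 2 of the committed genes. With precursor decided first, 91.1% of WT cells were precursors and 7.14% committed. Asking for 2 rather than 3 of the myelin genes made 3 WT cells (5.36%) myelin-forming, and staging by the largest summed CPM made 7.14% of WT and 16.7% of Nuc1 cells, 1 of 6, myelin-forming. Both stages had like depths in WT, with medians of 12984 and 12621 UMIs.

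Committed cells were compared with precursors over 1914 genes with at least 100 UMIs in lineage cells, since no cell was myelin-forming. In WT, 111 genes (5.8%) were at least 2-fold higher in committed cells with an interval that excluded 0, and 84 (4.39%) lower, with a median log2 ratio of -0.02, and 75 (3.92%) were 2-fold higher and 29 (1.52%) lower in both libraries. Myelin genes made up a block: 7 of 9 that were no stage genes were higher in WT, with a median of 4.49, and 6 of them in both libraries. These counts include the rule gene Mbp. It stood at 4814 against 11.4 CPM in WT, although 46.7% of its UMIs in committed cells came from 1 cell. Tubb4a stood at 1688 against 17.1 CPM, and Nfasc at 556 against 24.7 CPM.

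All 5 committed genes left after the stage genes were higher in WT, among them Fyn (1150 against 399 CPM) and Tcf7l2 (236 against 66.6 CPM). Bcas1, a rule gene, is 1 of the 5. The deacetylase gene Sirt2, a myelin-associated protein found in 26 of 26 committed and 28 of 29 precursor WT cells, was higher in committed cells (log2 2.91, 2.69 to 3.12) and also in Nuc1 (4.33), as was Stmn4, a microtubule regulator (2.85 and 2.94). Of 11 cholesterol genes 4 were called higher in WT and all 11 had positive ratios, with a median of 0.86, but the Nuc1 median was -0.46 and 0 were 2-fold higher in both libraries. With the 7 WT cells that held RNA of other cell types left out, 1 of the cholesterol genes was called.

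Lower in committed cells were Mt3, a metallothionein (log2 -1.82, -2.06 to -1.59), and Id1, an inhibitor of differentiation (-1.67, -2.14 to -1.21), both also lower in Nuc1 (-2.26 and -1.68). Mt3 had 42.1% of its precursor and 83.6% of its committed UMIs in 1 cell each, and Hspb1, a small heat shock protein, which was lower by a log2 of -3.70, lay in 6 precursor and 3 committed WT cells. Astrocyte markers were lower for 4 of 6 in WT, and for 1 of them once the cells with RNA of other types were left out. Of 14 division genes 7 were lower in WT committed cells and 0 higher, with a median of -1.02, whereas in Nuc1, with 3 cells a stage, the median was 2.52. Cells with both Mki67 and Top2a made up 37.9% of precursor (20.7 to 57.7) and 23.1% of committed WT cells (8.97 to 43.6), intervals that overlap.

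All 11 WT cells with a Mag UMI were committed, and they were compared with the 45 WT lineage cells without one, a split chosen after the values were seen. Of 1913 genes, 165 (8.63%) were at least 2-fold higher in the 11 cells with an interval that excluded 0 and 239 (12.5%) lower, with a median log2 ratio of -0.11. Of 9 myelin genes compared, 8 were higher and 0 lower, with a median of 5.08, and all 6 committed genes were higher. The higher genes include the rule genes Mbp and Bcas1. Some myelin genes were also found in most cells without Mag, as Cnp in 45 and Pllp in 43 of the 45. Mag ran from 100 to 1672 CPM in these 11 cells, with a median of 769. Tubb4a was found in all 11, from 1306 to 5695 CPM, and in 13 of the 45, where it reached 2072 CPM, so the groups overlapped at their edges (ratio 49.0), and Nfasc in all 11 and 13 of the 45 (33.8). Mbp was found in 7 of the 11 and 5 of the 45, and its ratio of 402 (257 to 669) rests on few cells.

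Cldn11, which summed to like levels in lineage and other WT cells, had 377 of its 399 lineage UMIs in the 11 cells, in 8 of them, a ratio of 58.2 (37.9 to 94.0). Myrf was 10.4-fold higher (log2 3.38, 2.59 to 4.23), found in 10 of 11 and 13 of 45 cells. Ugt8 was 6.96-fold higher (5.32 to 9.16) and in all 11, Cnp 4.77-fold and Tcf7l2 4.60-fold. Aspa, the enzyme that releases acetate from N-acetylaspartate, had 23 UMIs in 4 of the 11 cells and 0 in the 45. The deepest of the 11 cells, with 63189 of their 226651 UMIs, held 165 of the 377 Cldn11, 88 of the 217 Mag and 13 of the 23 Aspa UMIs. It was also the 1 with both Mki67 and Top2a, and its part in these ratios was not tested. Enpp6 was found in 8 of the 11 and 2 of the 45.

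Of 7 precursor genes compared, 4 were at least 2-fold lower in the 11 cells and 0 higher, with a median of -1.60. Pdgfra was found in 3 of them and in 38 of the 45 others, at 35.3 against 369 CPM (ratio 0.0957, 0.0409 to 0.191). Cspg4 had 3 UMIs in 1 of the 11 cells, and Ptprz1, though present in all 11, was at 291 against 883 CPM. C1ql1, at 322 against 458 CPM, was less than 2-fold lower (ratio 0.703), and Vcan, a matrix proteoglycan, was at 468 against 412 CPM with an interval that included 1. Id2 and Id4, inhibitors of differentiation, were at 13.2 against 169 CPM and at 0 against 139 CPM, the latter with 0 and 107 UMIs. Olig1 was at 618 against 1673 CPM, a log2 of -1.44, while Olig2 was at 313 against 404 CPM with an interval that included 1 (0.591 to 1.01) and Sox10 was 1.91-fold higher. Of 14 division genes 10 were lower and 0 higher, and cells with both Mki67 and Top2a were 1 of 11 and 16 of 45. Astrocyte markers were lower for 5 of 6 and fibroblast markers for 2 of 2, and their part in these ratios was not tested. In Nuc1, 1 of the 3 committed cells had Mag (28 UMIs), with 29 Mbp UMIs and 0 Pdgfra UMIs.

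**Figure D4:**
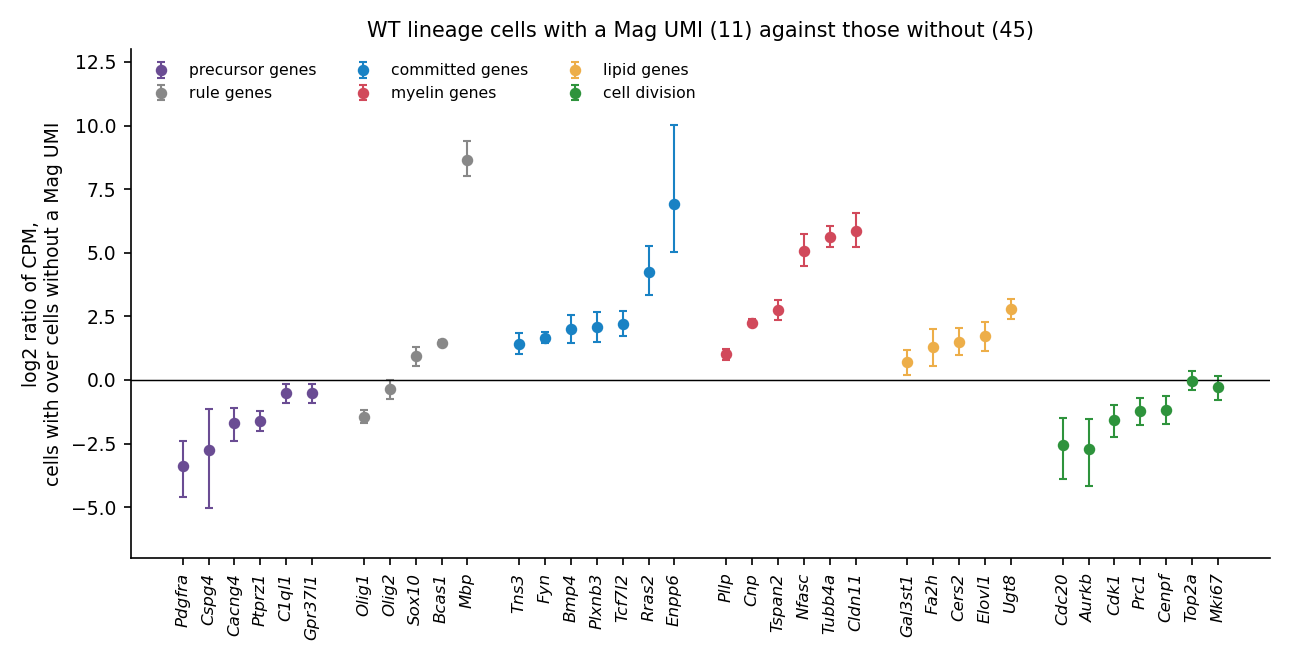
Log2 ratio of the 11 WT lineage cells with a Mag UMI over the 45 without one, for precursor, rule, committed, myelin, lipid and division genes, with exact conditional intervals. Mbp, Tubb4a and Nfasc lie above 4, whereas Pdgfra lies below -3.

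The 6 Nuc1 lineage cells were last set against the 56 WT lineage cells. Of 1914 genes, 43 (2.25%) were at least 2-fold higher in Nuc1 with an interval that excluded 0, 107 (5.59%) were lower, and for 1517 the interval included 0, with a median log2 ratio of 0.03. TMM scaling moved ratios by -0.23 and gave 16 higher and 182 lower. The genotypes cannot be told apart from the libraries here. Several lineage genes lay within counting error: Olig1 at 1409 CPM in Nuc1 and 1433 CPM in WT (log2 -0.02, -0.29 to 0.23), Bcas1 at 3254 and 3077 CPM (0.08, -0.09 to 0.25), Cnp at 2007 and 2136 CPM (-0.09, -0.31 to 0.12) and Fyn at 679 and 753 CPM (-0.15, -0.53 to 0.21). Olig1 and Bcas1 are rule genes, so the choice of cells partly sets their levels in both libraries and nothing is read from their ratios. For Cnp and Fyn the counting intervals left out a 2-fold difference in either direction. However, 1 Nuc1 cell held 41.9% of the Cnp and 43.3% of the Fyn UMIs of the Nuc1 lineage cells. Spread between cells or animals is not part of these intervals, so a 2-fold difference between genotypes is not excluded.

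Myelin genes were lower for 3 of 10 and higher for 0, with a median of -0.63. The rule gene Mbp is 1 of the 10 and of the 3, and nothing is read from its ratio. Mbp was at 345 CPM in Nuc1 and 2275 CPM in WT (log2 -2.72, -3.26 to -2.24), though 1 WT cell held 46.6% of the WT UMIs and 1 Nuc1 cell 29 of the 34 Nuc1 UMIs. Tubb4a was at 213 and 805 CPM (-1.92, -2.62 to -1.30), with 66.7% of its Nuc1 UMIs in 1 cell. Cldn11 had 0 UMIs against 399, a log2 of -3.72 at the floor of 3 counts, with an exact upper limit of -3.41. For Cldn11, 1 WT cell held 41.4% of the WT UMIs, and without it the log2 at the floor was -3.04, an alternative chosen after seeing the data. The 11 WT cells with a Mag UMI held 377 of the 399 Cldn11 and 750 of the 802 Tubb4a UMIs of WT, whereas 1 Nuc1 cell had Mag. Ugt8 was at 81.1 and 254 CPM (-1.65, -2.87 to -0.65). Of 7 precursor genes 2 were lower, C1ql1 (-1.01, -1.71 to -0.37, and -0.94 without the WT cell with most of its UMIs) and Vcan (-1.58, -2.46 to -0.82), the latter a matrix proteoglycan that was also lower in the other Nuc1 cells (-1.68). Of 11 cholesterol genes 3 were lower, Cyp51 and Insig1 among them, with a median of -0.60 over the list. Of 9 transcription factors, rule genes included, Id4 was higher (1.05, 0.32 to 1.73), with 16 of its 22 Nuc1 UMIs in the Mag cell.

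The division genes had 1 of 14 higher, Mcm6 (log2 1.25, 0.60 to 1.85, but -0.54 without the cell that held most of its UMIs in each library), and 1 lower, Aurkb (-1.20, -2.67 to -0.04), with a median of 0.33. For Aurkb, 1 WT cell held 56.1% of the WT UMIs, and without it the log2 was -0.10 (-1.60 to 1.11), an alternative chosen after seeing the data. Stat3, of the JAK-STAT genes the one with enough UMIs, was at 213 and 169 CPM (log2 0.34, with an interval that included 0). Dissociation-response genes were lower for 4 of 8: Egr1 (-1.26), Atf3 (-2.34), Nr4a1 (-1.46) and Btg2 (-1.72), and the same genes stood at -1.15, -1.56, -2.85 and -1.26 between the other cells of the libraries. Astrocyte markers were lower for 3 of 6 and both fibroblast markers compared were lower. Gfap, the intermediate filament of astrocytes, stood at -1.78 in lineage cells and 2.12 between the other cells, and without the cells that held RNA of other types 1 astrocyte marker was lower. The part of this RNA, and of the response to dissociation, in the other differences was not tested. Genes of the Y chromosome and Xist were together at 0 in lineage cells of both libraries and at 0.121 CPM in other WT and 31.5 CPM in other Nuc1 cells.

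Among single genes, Cdkn1c, the cell cycle inhibitor p57, was the highest in Nuc1, at 720 against 140 CPM (log2 2.36, 1.92 to 2.78). Its 71 Nuc1 UMIs lay in the 3 committed cells, as 9, 26 and 36, and none in the 3 precursors, while 27 of the 56 WT cells had it, and it was also higher in the other Nuc1 cells (0.72). Erp29, a chaperone of the endoplasmic reticulum, was found in all 6 Nuc1 cells, at 679 against 243 CPM (log2 interval 1.07 to 1.88), and was higher within precursors (1.29) and within committed cells (1.44). Its 67 Nuc1 UMIs were spread unevenly, as 1, 2, 7, 9, 27 and 21 in cells of rising depth. The aminoacyl-tRNA synthetase genes Eprs (1.34, 0.98 to 1.68) and Aars (1.30, 0.65 to 1.90) and the amino acid transporter subunit Slc3a2 (1.27, 0.89 to 1.62) were higher too. However, 66.3% of the Eprs UMIs came from 1 Nuc1 cell and Eprs stood at -0.12 with at most 10% mitochondrial UMIs. The Nuc1 precursor that also held Aqp4 and Mlc1 had 23 of the 33 Slc3a2 and 7 of the 18 Erp29 UMIs of Nuc1 precursors. Mea1 (1.47) and the cell cycle phosphatase gene Cdkn3 (1.42) were higher, and Hist1h1b (1.62) had 27 of its 28 Nuc1 UMIs in 1 cell and stood at -2.49 without the cell with most of its UMIs in each library.

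The lowest were Vegfa, the vascular growth factor, with 1 UMI against 132 in 44 of 56 WT cells (log2 -3.71, -9.02 to -1.20), and Clint1 (-3.44). Next came Zfp36, an mRNA decay factor induced with the immediate early genes, with 0 UMIs against 321. Its log2 was -3.40 at the floor of 3 counts, with an exact upper limit of -3.10. Zfp36 was also lower in the other Nuc1 cells (-1.70), as were Ppp2cb (-2.31 in lineage cells, -1.12 in others) and Atf3. Vegfa stood at -0.67 and Clint1 at -0.26 in the other cells. G0s2, an inhibitor of lipolysis, was lower in lineage cells (-2.58, -5.64 to -0.70) and higher in the others (0.66). B3gat2, which makes the HNK-1 carbohydrate, was lower (-2.53) and had few UMIs in other cells.

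**Figure D5:**
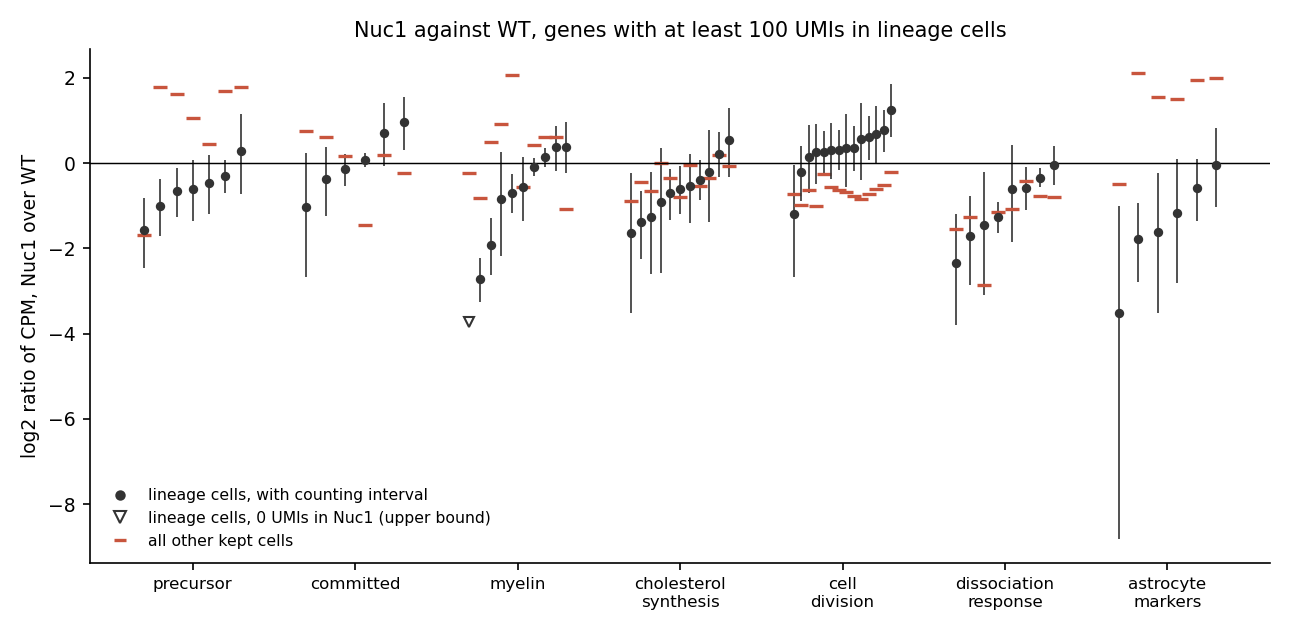
Log2 ratio of Nuc1 over WT in lineage cells (dots with exact conditional intervals) and in all other kept cells (red dashes), for list members with at least 100 UMIs in lineage cells, sorted within each list. The open triangle is the log2 of -3.72 for Cldn11, whose 0 UMIs in Nuc1 lineage cells were set to the floor of 3 counts. Its exact upper limit was -3.41. Most committed and division genes lie around 0, and most astrocyte markers lie below 0 in lineage cells and above 0 in other cells.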

How the data were processed

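The authors sequenced 3′ droplet libraries (1 WT, 1 Nuc1) and deposited raw UMI counts of 25399 genes per cell barcode, without normalization, made with Cell Ranger 3.1.0 and STAR 2.7 per the submitters' processing notes, which also name Seurat 3.1.0 and 3.1.1. A genome build is not given in the sources used here. From these counts, 1968 WT and 1793 Nuc1 cells passed the filter. No doublet caller was run, and as an alternative cells of very high depth (log UMIs beyond 3 scaled median absolute deviations) were dropped. UMIs were summed over cells in Python 3.11.15 (pandas 2.3.3, scipy 1.17.1), and figures were drawn with matplotlib 3.10.9. Intervals are exact Poisson for a sum, Clopper-Pearson for a share and conditional for a ratio, at 95%. A sum of 0 was set to 3 counts, in place of the 0.5 UMIs first planned. TMM factors came from edgeR 4.0.16 in R 4.3.3. The ratio intervals and calls were tested on simulated sums that had counting error only, without spread between cells. Cell choice, stages and TMM scaling were not simulated.

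The members and lists were chosen with earlier results of these data known. Named genes are list members, the 15 highest and 5 lowest over other cells, the 10 highest and 10 lowest between stages in both libraries, and the 8 highest and 8 lowest of Nuc1 over WT that lay in at least 10 cells with at most 20% of UMIs in 1 cell. That limit was applied to WT only, since it left 13 genes when applied to both libraries and 1605 when applied to WT. Of the list symbols, 12 were not analysed here, and a few named genes are not reported here. Alternatives were other filters and thresholds, thinning, TMM scaling, within-stage means, other stage rules and leaving out cells.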

Additional observations from a re-analysis of the deposited data

Results flagged for a closer look

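The ratio of lineage over other cells went opposite ways in the libraries for 4 genes, with both counting intervals away from 0. The difference was not tested, as there is 1 library per genotype. Aldoc, an aldolase of astrocytes, had a log2 ratio of 1.16 in WT and -1.38 in Nuc1, with lineage cells at 274 CPM in WT and 182 CPM in Nuc1, and other cells at 123 and 473 CPM. Ntrk2, the BDNF receptor, had 1.59 and -0.96, at 365 and 203 CPM in lineage cells and 121 and 394 CPM in others. Dag1, dystroglycan, had 0.36 and -1.54, the latter from 5 UMIs. Dynlrb2, a motile cilia gene, had 3.19 and -3.76, and nearly all UMIs of the cilia genes in WT lineage cells came from 1 cell. Of 139 WT barcodes outside the cell filter, 5 met the marker rule, and of 136 Nuc1 barcodes 0 did.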

How the results depend on the processing

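No paired analysis was possible because the labels number no replicates and name 1 library per genotype. With at most 10% mitochondrial UMIs the WT share was 1.04%, Nuc1 lineage cells were 100% precursor and 0% committed, 697 genes were higher and 291 lower than in other cells, and Nuc1 against WT gave 11 higher and 52 lower. Under that limit the Nuc1 ratio over other cells changed sign for C1ql1 (-1.32), Cdc20 (-1.0), Cenpf (-0.23), Itga6 (0.14), Sema5a (-0.38), Top2a (-0.56) and Tpx2 (-1.03), and Nuc1 against WT for Eprs (-0.12). No stage comparison could be made there, since no committed Nuc1 cell was left. TMM scaling gave 669 higher and 886 lower than in other cells, and 16 higher and 182 lower in Nuc1 than in WT.

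Stage shares also moved. With precursor decided first, WT was 91.1% precursor and 7.14% committed, and Nuc1 100% and 0%. By the largest summed CPM, WT was 82.1% precursor, 10.7% committed and 7.14% myelin-forming. Thinning to 5000 UMIs left 27.3% committed. Between stages, in both libraries, 40 genes were higher and 19 lower with at least 4 rule genes, 141 and 116 with a minimum of 20 UMIs, 17 lower at 1000 CPM, and 17 lower without cells holding RNA of other types, an alternative chosen after seeing the data. In WT alone the minimum of 20 UMIs gave 344 higher and 445 lower, and leaving out those cells 52 lower.

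For Nuc1 against WT, 227 genes were higher with a minimum of 20 UMIs, which also admits more genes, 8 higher and 28 lower after thinning, 25 higher by within-stage means, 28 higher without the cells with other RNA, and 19 higher and 193 lower without the cell with most UMIs of each gene, which turned Hist1h1b to -2.49 and Mcm6 to -0.54. Beyond the construction of each alternative, the cause was not tested. With 98642 Nuc1 UMIs, a gene under 30.4 CPM cannot be told from absent there.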

Other observations

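Some genes better known from neurons, chosen here after their values were seen, were also higher in lineage cells. Elavl3, an RNA-binding protein of neurons, stood at 90.3 CPM in WT lineage cells, in 32 of 56, and 0.0605 CPM in other WT cells, and at 71.0 against 0.799 CPM in Nuc1. Ina, an intermediate filament, stood at 177 against 1.82 CPM in WT and 132 against 3.91 CPM in Nuc1, Mapt, the microtubule protein tau, at 301 against 5.57 CPM and 629 against 21.6 CPM, and Syt4, a synaptotagmin, at 229 against 4.48 CPM and 213 against 3.31 CPM. Among other markers of neurons, Nefl had 0 UMIs, Snap25 2 UMIs and Rbfox3 4 UMIs in WT lineage cells.

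Values of 3 other genes, also chosen after they were seen, follow. Slc1a1, a glutamate transporter, stood at 351 against 4.33 CPM in 54 WT cells and 233 against 7.05 CPM in Nuc1. Gltp, a glycolipid transfer protein, was found in 56 of 56 WT and 6 of 6 Nuc1 lineage cells, at 636 against 32.0 CPM and 689 against 32.6 CPM. Tgfa, a ligand of the EGF receptor, stood at 169 against 0.575 CPM in 48 WT cells and had 13 UMIs in 4 of 6 Nuc1 cells.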
